A study of Mus musculus with 7 samples.

Results

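The genes described here are the collagens and laminins, the chains of the fibrils and sheets that hold tissues together outside cells. They were chosen by name, as every row of the authors' deposited table called Col or Lam with its chain numbers and a mean of at least 10 normalized counts, that is reads scaled for library depth. Of 55 rows with such a name among 25239 genes, 46 reached that mean. They comprise 9 fibrillar collagens, 8 basement membrane collagens, 19 other collagens and 10 laminins. The 9 rows below the minimum were Col28a1, Col5a3, Col17a1, Lamb3, Col24a1, Col6a6, Col6a4, Col6a5 and Col10a1. The nearest of them, Col28a1, had a mean of 9.80 normalized counts, and the nearest inside, Col4a3 and Lama3, had 12.6 and 15.8 normalized counts.

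Polyadenylated RNA had been sequenced from the electroporated cortex of 7 C57BL/6J embryos, labelled as wild type in genotype, at E15.5, after electroporation in utero at E13.5. In 3 brains Breasi-CRISPR, which delivers Cas9, a guide RNA and a repair donor, had been used to write Ccnd2 Thr280Ala, a change of residue 280 of cyclin D2. In 4 brains the same method had carried a silent control, and what it changed is not stated by the labels. All 7 brains were therefore electroporated. Each of 3 litters held 1 edited brain, beside 2 silent control brains in litter 1 and 1 in each other litter. Editing by electroporation reaches part of the cells of a sample, and neither the edited share nor the cell types that carried the edit were measured. Ccnd2 transcript, the edited gene, had a log2 fold change of 0.08 (standard error, SE, 0.25) in the authors' deposited table, which checks no label, because the change alters the protein and not necessarily the transcript level. Library totals, estimated from genes with a single read, were between 20800000 and 32800000 reads in edited brains and between 19400000 and 29000000 reads in silent control brains. They rest on the depth scaling of each library and are not counted totals.

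Collagens are built from alpha chains wound around each other. Fibrillar collagens pack into the cables of connective tissue, and type IV collagens form the net of basement membranes. Laminins are cross-shaped trimers of an alpha, a beta and a gamma chain that polymerise into the first sheet of a basement membrane and bind integrins and dystroglycan on cells. In the developing cortex a basement membrane lies at the pial surface, where radial glial endfeet attach, and another surrounds each blood vessel. Much of the collagen around the cortex comes from meningeal fibroblasts, endothelial cells and pericytes, and defects of the pial basement membrane are known to let neurons migrate beyond the cortical surface.

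The start regions of some of these genes are printed first, because 2 of the most abundant members share theirs and because later results turn on the others. The sequences are RefSeq windows of GRCm38.p6, from 250 bases before to 50 bases after the annotated start, and 31 of the 46 members had at least 1 such window. Col4a1 and Col4a2, on chromosome 8, are transcribed away from each other from starts 21 bases apart, so that their windows overlap by 78 bases. Capitals mark that overlap, which reads on opposite strands in the windows chr8:11312777-11313076 of Col4a1 (minus strand) and chr8:11312555-11312854 of Col4a2 (plus strand).
Col4a1: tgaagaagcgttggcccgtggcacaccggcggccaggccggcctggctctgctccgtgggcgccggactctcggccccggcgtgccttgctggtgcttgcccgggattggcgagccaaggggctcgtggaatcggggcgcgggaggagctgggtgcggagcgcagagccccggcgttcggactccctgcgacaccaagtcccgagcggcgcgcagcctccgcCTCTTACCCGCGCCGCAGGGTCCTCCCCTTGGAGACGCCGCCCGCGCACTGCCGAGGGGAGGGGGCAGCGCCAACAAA
Col4a2: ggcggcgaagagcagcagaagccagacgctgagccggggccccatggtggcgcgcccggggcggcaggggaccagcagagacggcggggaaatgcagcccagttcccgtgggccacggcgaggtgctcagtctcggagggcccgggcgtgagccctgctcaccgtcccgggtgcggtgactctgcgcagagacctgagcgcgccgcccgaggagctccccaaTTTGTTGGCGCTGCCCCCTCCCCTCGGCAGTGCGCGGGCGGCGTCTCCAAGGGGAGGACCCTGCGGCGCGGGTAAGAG
The annotated first exons overlap on opposite strands, and the strand setting of the counting is not given in the labels.

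The other windows belong to Col3a1 and Col1a2, abundant fibrillar chains, and to Col13a1 and Col7a1, which had most of their reads in a single library. They lie at chr1:45311288-45311587 (plus strand), chr6:4505368-4505667 (plus strand), chr10:61979059-61979358 (minus strand) and chr9:108953336-108953635 (plus strand). Capitals mark matches on either strand to TATAAA, the core of the TATA box, to CCAAT and to GGGCGG, a GC box. Matches are marked at any distance from the start, so a marked TATAAA need not be a TATA box. No matches overlap in these windows.
Col3a1: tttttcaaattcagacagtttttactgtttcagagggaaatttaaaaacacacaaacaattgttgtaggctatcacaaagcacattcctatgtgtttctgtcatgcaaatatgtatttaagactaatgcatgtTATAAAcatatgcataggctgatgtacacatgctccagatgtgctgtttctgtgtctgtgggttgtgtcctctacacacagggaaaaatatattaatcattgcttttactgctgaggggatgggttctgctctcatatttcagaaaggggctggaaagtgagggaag
Col1a2: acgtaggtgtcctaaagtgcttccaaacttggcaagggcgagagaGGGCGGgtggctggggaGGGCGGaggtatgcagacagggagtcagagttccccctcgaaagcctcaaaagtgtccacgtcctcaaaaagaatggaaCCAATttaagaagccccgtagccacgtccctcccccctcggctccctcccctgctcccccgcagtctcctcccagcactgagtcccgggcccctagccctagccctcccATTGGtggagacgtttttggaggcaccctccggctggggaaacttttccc
Col13a1: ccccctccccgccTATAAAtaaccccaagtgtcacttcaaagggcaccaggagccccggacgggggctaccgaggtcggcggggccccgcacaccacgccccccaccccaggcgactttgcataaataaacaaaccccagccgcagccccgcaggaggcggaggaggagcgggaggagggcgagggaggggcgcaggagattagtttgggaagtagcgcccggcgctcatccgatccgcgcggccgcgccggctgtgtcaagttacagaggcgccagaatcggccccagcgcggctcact
Col7a1: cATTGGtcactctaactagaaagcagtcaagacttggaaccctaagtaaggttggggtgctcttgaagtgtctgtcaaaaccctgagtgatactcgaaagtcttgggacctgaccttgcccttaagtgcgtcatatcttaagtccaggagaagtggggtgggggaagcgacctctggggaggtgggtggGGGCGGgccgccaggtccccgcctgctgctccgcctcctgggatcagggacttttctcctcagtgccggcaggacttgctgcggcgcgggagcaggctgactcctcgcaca
TATAAA was in 3 of 34 member windows (8.82%) and in 13.6% of all 32851 windows of the same length. CCAAT was in 32.4% of member windows and 37.4% of all windows. GGGCGG was in 64.7% of member windows and 35.7% of all windows, and the median GC content was 60.2% in member windows and 52.7% in all windows. These matches are letters in a window and not measured binding sites.

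Type IV chains of the common basement membrane net were the most abundant members per length. Per kilobase of annotated exons, the mean over all 7 libraries was 698 normalized counts for Col4a1 and 509 for Col4a2. Col3a1, the chain of type III collagen in vessel walls and meninges, followed with 314 normalized counts per kilobase, and Col1a1, a type I collagen chain, with 261. Lamc1, the gamma chain of most laminins, had 249 normalized counts per kilobase, and its usual partner Lamb1 had 141. The plot of level per length shows that each class spanned more than a factor of 10. Among type IV chains, Col4a5 was at 46.2, Col4a6 at 12.3, Col4a4 at 4.14 and Col4a3 at 1.27 normalized counts per kilobase. Of the other collagens, Col9a3, a type IX chain known from cartilage, led with 79.8 normalized counts per kilobase, and Col7a1, the anchoring fibril collagen of skin, was lowest with 2.56. Laminin alpha chains ran from Lama4, known from vessel walls, at 64.5 to Lama3, an epidermal chain, at 1.47 normalized counts per kilobase. Because the deposited mean pools both groups, these levels have no spread over samples, and neighbours in this order were not tested against each other.

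**Figure D1:**
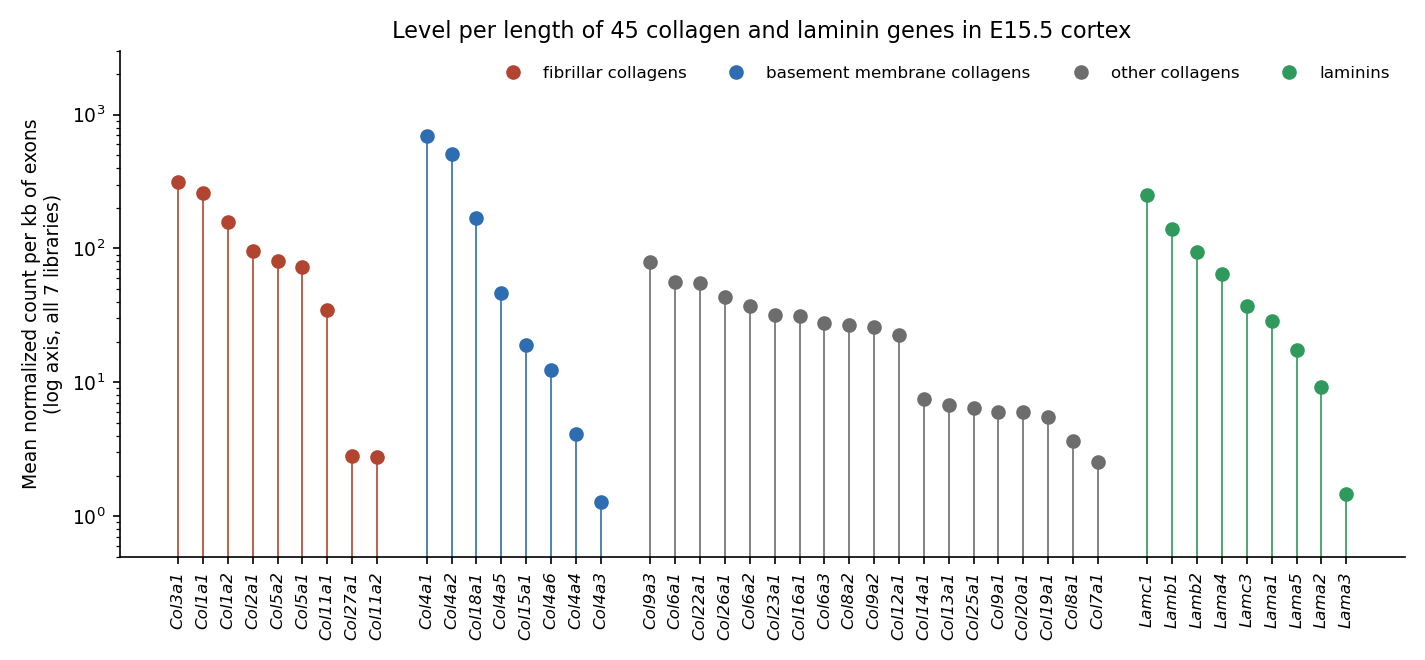
Mean normalized count per kilobase of exons (vertical log axis) for 45 of the 46 genes, grouped by class and sorted within it. Points are means over all 7 libraries, with lines down to the axis. Col4a1 and Col4a2 stand highest, at 698 and 509, and Col4a3 stands lowest, at 1.27.

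No collagen or laminin gene differed between edited and silent control cortex at an adjusted p below 0.05, the threshold for a call, in the authors' deposited table, which was fitted with litter as a term. Of all 14638 tested genes, 36 (0.246%) did, 27 (0.184%) lower and 9 (0.0615%) higher in edited brains. At an unadjusted p below 0.05, 2 of the 46 genes passed, Col13a1 and Col23a1, both lower in edited brains, where 5.86% of all tested genes passed, 3.66% as lower and 2.2% as higher in edited brains. The members nevertheless lay mostly on one side. The deposited log2 fold change, edited over silent control, was below 0 in 38 of 46 members (82.6%), against 51.7% of the 14231 genes at a mean of at least 10. Its median was -0.55 over the members and -0.01 over all tested genes. It reached -1 or less in 7 members, where 1.81% of all genes did, and 1 or more in 0 members, where 0.351% of all genes did. Of the 7, Col13a1 and Col7a1 reached the minimum mean of 10 only through a single silent control library, described below. Their means over the other silent controls were 1.87 and 4.01 normalized counts, and over edited brains 2.67 and 6.18. Both count among the 38 below 0, and Col13a1 also among the 2 at an unadjusted p below 0.05. On the other side, Col4a3 reached the minimum only through edited brains. Its mean was 17.1 normalized counts there, with 36.3 in the pair B edited brain, and 9.28 in silent controls. It counts among the members above 0. The 95% intervals were wide, so that 2 of 46 excluded 0 and 4 lay entirely within a change of 1 in either direction. In bulk tissue, fewer cells of a type and less RNA per cell cannot be told apart.

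**Figure D2:**
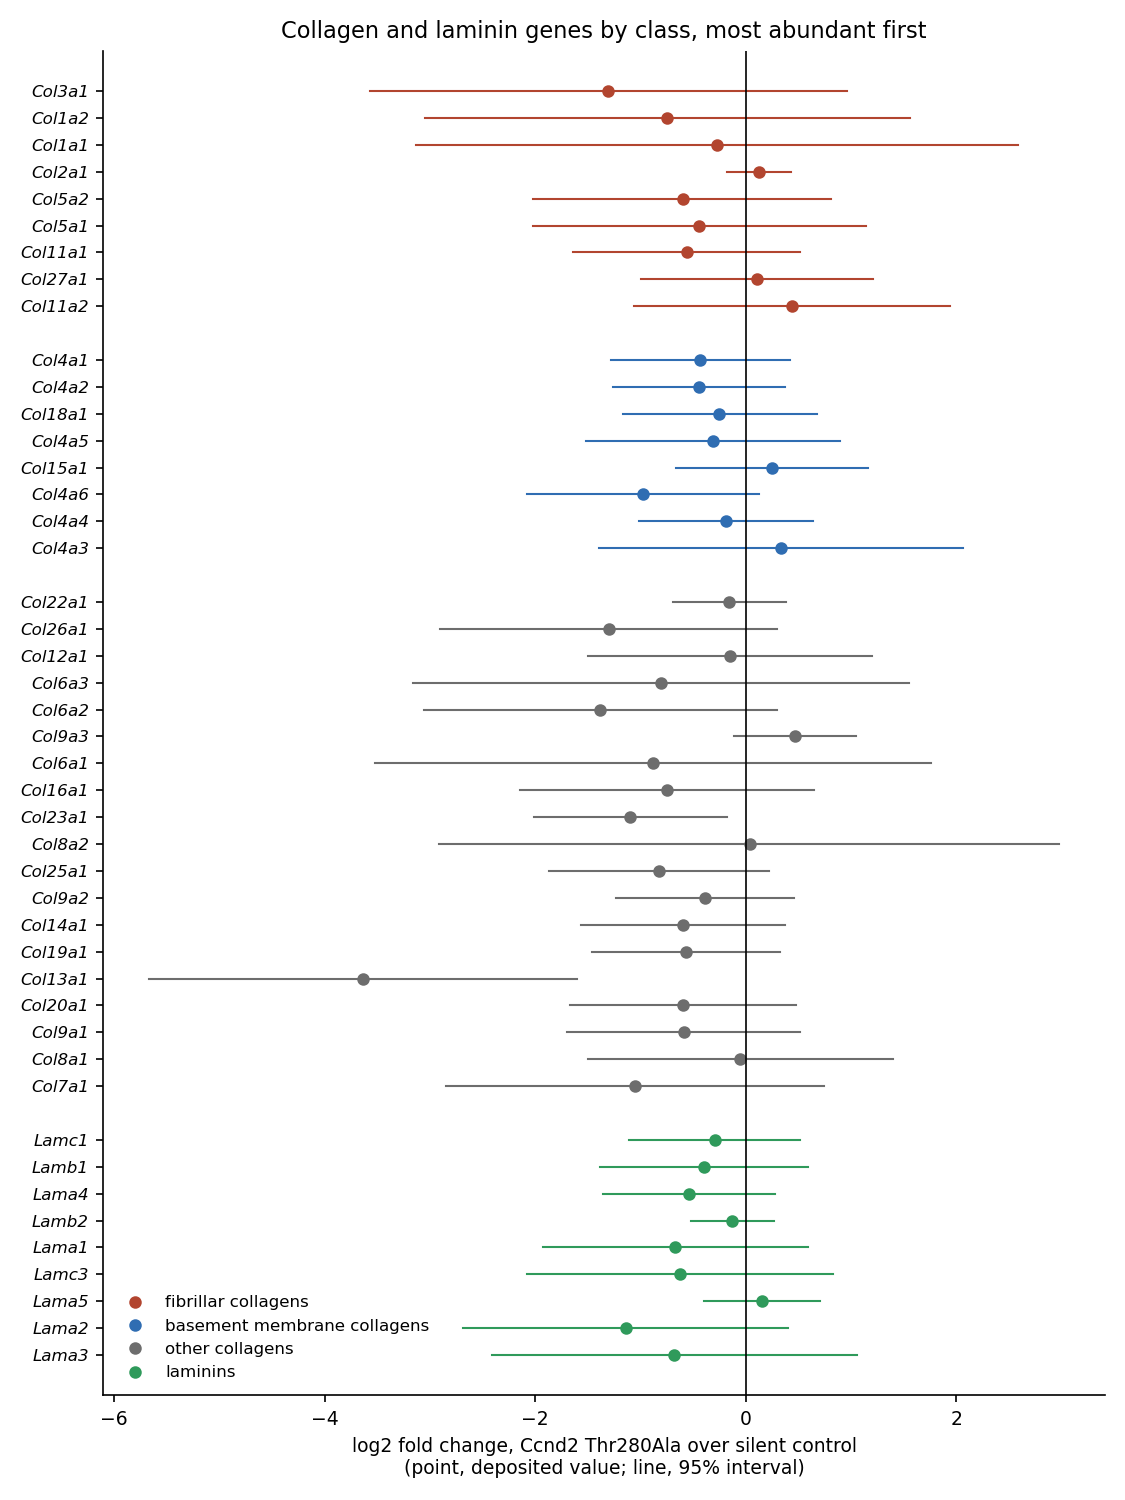
Deposited log2 fold change, Ccnd2 Thr280Ala over silent control (horizontal axis), for 45 of the 46 genes, by class and from most to least abundant within it. Points are the deposited values and lines their 95% intervals. Most points lie left of 0, and the intervals of Col13a1 and Col23a1 alone exclude 0.

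Fibrillar collagens had a median deposited log2 fold change of -0.44, with 6 of 9 members below 0 and 0 called. Col3a1 (chromosome 1, 45311538 to 45349706), the most abundant at a mean of 3086 normalized counts and the known ligand of the receptor Adgrg1 in the pial basement membrane, had the largest negative value of the class, -1.31 (SE 1.16, 95% interval -3.57 to 0.96). Col1a2 and Col1a1, which together build type I collagen, had deposited values of -0.75 (SE 1.18) and -0.27 (SE 1.46). These intervals hold large differences in either direction, and that of Col1a1 ran from -3.13 to 2.59. For Col5a2 and Col5a1, whose type V collagen nucleates type I fibrils, the authors' deposited table held -0.60 (SE 0.72) and -0.44 (SE 0.81). Col11a1, the related type XI chain, had -0.56 (SE 0.55) there. Col2a1, known from cartilage, differed from the other abundant chains of its class in its error. Its deposited value was 0.13 with an SE of 0.16 and an interval of -0.18 to 0.43, although its mean of 892 normalized counts was below that of Col1a1 at 1711. The least abundant chains Col27a1 and Col11a2 had deposited values of 0.11 (SE 0.56) and 0.44 (SE 0.77).

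Basement membrane collagens had a median deposited log2 fold change of -0.28, with 6 of 8 members below 0 and 0 called. The head-to-head pair gave nearly the same value, Col4a1 (chromosome 8, 11198423 to 11312826) at -0.43 (SE 0.43) and Col4a2 (chromosome 8, 11312805 to 11449287) at -0.44 (SE 0.42). Their means were 5207 and 3372 normalized counts, and their 95% intervals were -1.28 to 0.42 and -1.26 to 0.37. The pair on chromosome X, whose starts lie 1343 bases apart, gave -0.31 (SE 0.62) for Col4a5 and -0.98 (SE 0.56, adjusted p = 0.925) for Col4a6 in the authors' deposited table. Col4a6 had the smallest p of the class. The remaining type IV chains Col4a4 and Col4a3, another head-to-head pair, had -0.19 (SE 0.42) and 0.34 (SE 0.88). Col4a3 passed the minimum mean only through edited brains, as given above. Col18a1, a heparan sulfate-bearing collagen whose end fragment is endostatin, had -0.25 (SE 0.47), and the related Col15a1 had a deposited value of 0.25 (SE 0.46).

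The other collagens had the lowest class median, -0.60, with 17 of 19 members below 0 and 0 called. The type VI chains of beaded filaments, made mostly by fibroblasts, had deposited values of -1.38 for Col6a2 (SE 0.86), -0.88 for Col6a1 (SE 1.35) and -0.80 for Col6a3 (SE 1.20). All 3 transmembrane collagens with a mean of at least 10 lay below 0 in the authors' deposited table, while Col17a1, below that minimum, had 0.67 (SE 0.97). Col13a1 (chromosome 10, 61838236 to 61979108), a collagen of adhesion sites and neuromuscular junctions, had -3.64 (SE 1.04, adjusted p = 0.111), the largest value and the smallest p of all members. Col23a1 (chromosome 11, 51289920 to 51583918) had -1.10 (SE 0.47, adjusted p = 0.637), and Col25a1, which is needed for motor innervation of muscle in mice, had -0.82 (SE 0.53). The collagens that attach to fibrils without forming their own, called FACIT, had a median of -0.57 with 8 of 9 below 0. Within them Col9a3 stood on the other side, at 0.47 (SE 0.30), while the other type IX chains Col9a2 and Col9a1 had deposited values of -0.39 (SE 0.43) and -0.59 (SE 0.57). The rest of the FACIT genes ran from -0.75 for Col16a1 (SE 0.71) to -0.15 for Col12a1 (SE 0.69) in the authors' deposited table, with Col22a1, a collagen of tendon junctions, at -0.16 (SE 0.27). Col14a1, Col20a1 and Col19a1 had deposited values of -0.60 (SE 0.49), -0.60 (SE 0.55) and -0.57 (SE 0.46). Col26a1 had -1.30 (SE 0.82) and Col7a1 -1.05 (SE 0.92), and the network collagens Col8a1 and Col8a2, of vessels and the corneal membrane, had deposited values of -0.05 (SE 0.74) and 0.04 (SE 1.50).

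Laminins had a median deposited log2 fold change of -0.56, with 9 of 10 members below 0 and 0 called. The common beta and gamma chains had small values, Lamb1 (chromosome 12, 31265234 to 31329644) at -0.40 (SE 0.50) and Lamc1 (chromosome 1, 153218922 to 153332786) at -0.29 (SE 0.42). The alpha chains, which decide what a laminin binds, ran from Lama2, the muscle and vessel chain, at -1.14 (SE 0.79, adjusted p = 0.968) to Lama5 at 0.16 (SE 0.28) in the authors' deposited table. Between them stood Lama3 at -0.68 (SE 0.89), Lama1, the alpha chain of early basement membranes, at -0.67 (SE 0.64) and Lama4 at -0.54 (SE 0.42). Lamb2 was the most precisely estimated laminin, at -0.13 with a deposited SE of 0.20 and an interval of -0.52 to 0.27. Lamc3, whose human counterpart is mutated in malformations of the occipital cortex, had a deposited value of -0.62 (SE 0.74).

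The medians of the classes lay between -0.60 and -0.28, and differences between classes were not tested. Most members had a larger SE than genes of like abundance, given here as a description. Each member's deposited SE was divided by the median SE of all tested genes within 2-fold of its mean. The median ratio was 2.69 over the 46 members, 43 of them had a ratio above 1, and 28 had a higher SE than 95% of the genes compared. By class the median ratio was 5.93 for fibrillar collagens, 3.34 for laminins, 2.73 for basement membrane collagens and 1.93 for other collagens. Col1a1, Col3a1 and Col1a2 had ratios of 15.1, 13.7 and 12.6. The spread of brains around the fit with litter and treatment as terms was thus far above that of most genes of like abundance. Only litter 1 held more than 1 brain of a group. A difference between edited and silent control brains that varied from litter to litter therefore also enters this spread. The type VI chains had a median ratio of 7.06. Col2a1, Lamb2 and Lama5 had lower ratios of 1.34, 1.49 and 1.33, with 11.7%, 8.25% and 16.2% of the genes compared at a higher SE. The least abundant fibrillar chains Col27a1 and Col11a2 had ratios of 1.15 and 1.16. Col4a4 and Col19a1, at 0.933 and 0.954, lay just below the median of genes of like abundance. In the plot of SE against abundance the abundant fibrillar chains form a group well above the cloud.

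**Figure D3:**
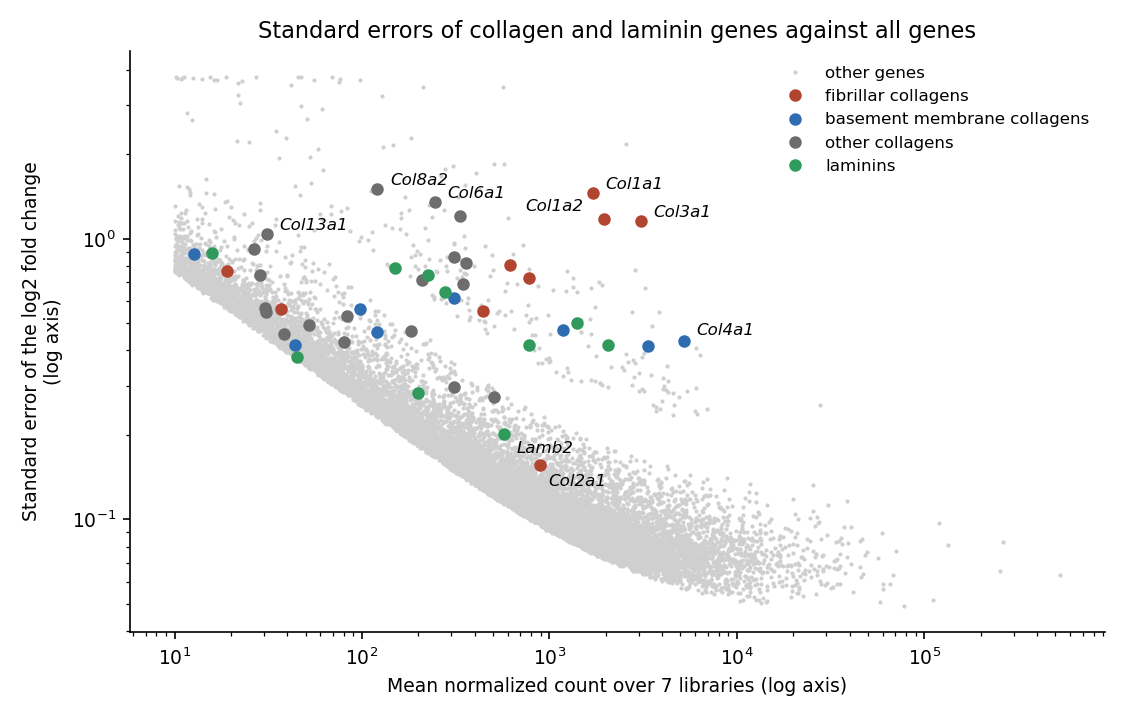
Deposited standard error of the log2 fold change (vertical log axis) against mean normalized count (horizontal log axis) for all tested genes at a mean of at least 10 in grey and the 46 collagen and laminin genes in the colours of their classes. Col1a1, Col1a2 and Col3a1 lie far above genes of like abundance, with SEs of 1.46, 1.18 and 1.16, and Col2a1 lies in the upper part of the cloud at 0.16.

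The deposited table has no values per brain, but its figures are given to 10 significant digits. For low counts these digits fix the whole reads of each library, and exactly 1 set of reads fitted the mean, fold change and SE of each of the 16 members with a mean below 100 normalized counts. Libraries are named by group and litter. Litters 2 and 3, each with 1 edited and 1 silent control brain, are here pair A and pair B, in unknown order. The groups overlapped in all 16 members. The share over all genes was not measured, so this is not read as a trait of the members. In 13 of the 16, the highest library of all 7 was the pair B silent control, and in 14 it was the highest control. How often it is highest over all genes was not measured either, so these counts are not read as a trait of the members. Summed over the 16, edited brains had 353 (litter with 2 controls), 407 (pair A) and 760 (pair B) normalized counts. Silent controls had 526 and 482 (litter with 2 controls), 469 (pair A) and 1709 (pair B) normalized counts. Of the 1709 of the pair B silent control, 422 came from Col4a6, 221 from Col9a2, 203 from Col13a1 and 154 from Col7a1. This library stood apart on another measure as well, with 25.9% of the 694 genes that had a single read in all. Its share of the summed size factors, the depth scaling of the libraries, was 13.7%. Total reads per library were not available. The part of the pair B silent control in the fold changes of the 30 more abundant members was not tested, because their reads were not searched for.

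**Figure D4:**
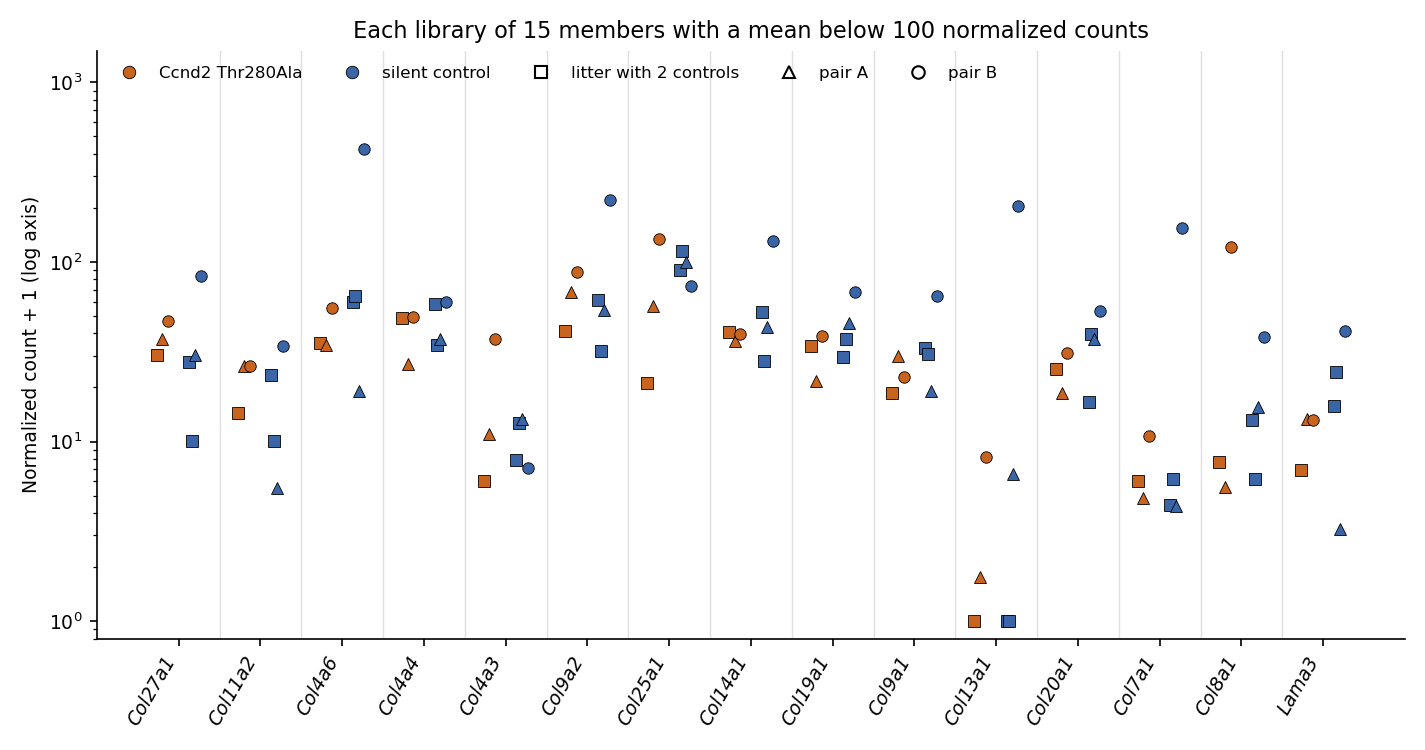
Normalized count plus 1 (vertical log axis) in each library for 15 of the 16 members with a mean below 100 normalized counts. Edited brains are orange and to the left, silent controls blue and to the right, and marker shapes give the litter. The pair B silent control (blue circle) is far above all other libraries for Col13a1, Col7a1 and Col4a6, and the pair B edited brain (orange circle) is highest for Col8a1, Col25a1 and Col4a3.

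Col13a1, the member with the largest fold change, was nearly absent outside that library. It had 0 (litter with 2 controls), 0.766 (pair A) and 7.25 (pair B) normalized counts in edited brains, against 0 and 0 (litter with 2 controls), 5.62 (pair A) and 203 (pair B) in silent controls. The means were 2.67 ± 3.99 in edited brains (SD, n = 3) and 52.2 ± 101 in silent controls (SD, n = 4). Of its 210 reads, 94.3% came from the pair B silent control. Col7a1 had the same shape. It had 5.06, 3.83 and 9.67 normalized counts in edited brains (litter with 2 controls, pair A, pair B), against 3.46, 5.18, 3.37 and 154 in silent controls (both of the litter with 2 controls, pair A, pair B). Outside pair B its values lay close together, at 3.83 and 5.06 in edited brains and between 3.37 and 5.18 in silent controls. Col6a6, a type VI chain below the minimum of 10, had all of its 24 reads in the pair B silent control.

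Col4a6, the type IV chain with the smallest p of its class, had 34.5, 33.7 and 54.4 normalized counts in edited brains, against 58.9, 63.5, 18.0 and 422 in silent controls, in the same order of libraries. The pair B silent control was 6.65 times the next control. Other low type IV chains did not show this. Col4a4 had 48.0, 26.0 and 48.4 normalized counts in edited brains, against 57.1, 33.7, 36.0 and 58.5 in silent controls, with no library apart. Col4a3 had 5.06, 9.95 and 36.3 normalized counts in edited brains, against 6.93, 11.7, 12.4 and 6.16 in silent controls. Its highest library was the pair B edited brain, and the pair B silent control was its lowest control.

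Col9a2 had 40.4, 67.4 and 87.0 normalized counts in edited brains, against 60.6, 31.1, 52.9 and 221 in silent controls. Col14a1 had 39.6, 35.2 and 38.7 in edited brains, against 51.9, 27.2, 42.7 and 130 in silent controls. For both genes the pair B silent control was again the high value, and the other controls lay around the edited brains. Col9a1 (17.7, 29.1 and 21.8 in edited brains, against 32.0, 29.8, 18.0 and 63.7 in silent controls) and the fibrillar Col27a1 (29.5, 36.0 and 45.9 in edited brains, against 26.8, 9.06, 29.2 and 82.1 in silent controls) showed it to a smaller degree. Col11a2 was at most 25.4 normalized counts in edited brains, against 22.5, 9.06, 4.50 and 32.9 in silent controls. Lama3 was at 5.90, 12.3 and 12.1 in edited brains, against 14.7, 23.3, 2.25 and 40.0 in silent controls. The silent controls of Col11a2 and Lama3 were spread more widely than the edited brains.

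Col8a1, made by endothelium and smooth muscle in other tissues, was high in a different library. It had 6.74, 4.59 and 120 normalized counts in edited brains, against 12.1, 5.18, 14.6 and 37.0 in silent controls, so that the pair B edited brain held the top value. Col25a1 had 20.2, 55.9 and 133 in edited brains, against 89.2, 114, 99.0 and 72.9 in silent controls. Here the edited brains were spread, at 69.7 ± 57.6 (SD, n = 3), and the controls lay close together, at 93.8 ± 17.2 (SD, n = 4). Col20a1 was lower in the edited brain of every litter, where the litter with 2 controls is represented by their mean. It had 24.4, 17.6 and 30.2 normalized counts in edited brains, against 15.6, 38.8, 36.0 and 52.4 in silent controls. Col19a1, which takes part in synapse formation in the mouse brain, had 32.9, 20.7 and 37.5 in edited brains, against 28.6, 36.3, 45.0 and 66.7 in silent controls. In both genes, too, the groups overlapped.

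In pair B, 13 of the 16 members were lower in the edited brain and 3 were higher, and their summed normalized counts were 760 in the edited and 1709 in the silent control brain. The pair B silent control was the highest of all 7 libraries in these 13. Their direction in pair B was fixed by that and is not a separate result. In pair A, 9 were lower and 7 higher in the edited brain, with sums of 407 in the edited and 469 in the silent control brain. In the litter with 2 controls, 10 were lower and 5 higher in the edited brain than the mean of its controls, with sums of 353 in the edited brain and 504 in the control mean. The median log2 ratio of edited over silent control, on values plus 1, was -0.82 in pair B, -0.28 in pair A and -0.19 in the litter with 2 controls. Each litter gave a median below 0. The difference was largest in pair B, which holds the high control library, so this restates that library and is not separate support. Leaving the pair B silent control out of the negative binomial fit, which also removes its edited litter partner from the comparison, changed the median log2 fold change of the 16 members to -0.15, against -0.58 with all 7 libraries. It left 11 of 16 below 0, against 13 with all libraries, and turned the sign of 4. The dispersion of each gene, the model's measure of spread, was held at its value from all 7 libraries. The SEs given here are therefore not those of a fit to the remaining libraries alone. The value of Col7a1 became 0.22 (SE 1.15), that of Col4a6 -0.09 (SE 0.68) and that of Col9a2 0.05 (SE 0.52). Col13a1 became -2.02 (SE 1.52), a value that rests on the 6 reads outside pair B, of which 1 was in the edited brain and 5 in the silent control of pair A. Values moved away from 0 as well, to -1.64 (SE 0.64) for Col25a1 and -0.93 (SE 0.94) for Col8a1. The value of Col25a1 turned on another library too, since it was 0.02 without the edited brain of the litter with 2 controls, against -0.82 with all 7 libraries.

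**Figure D5:**
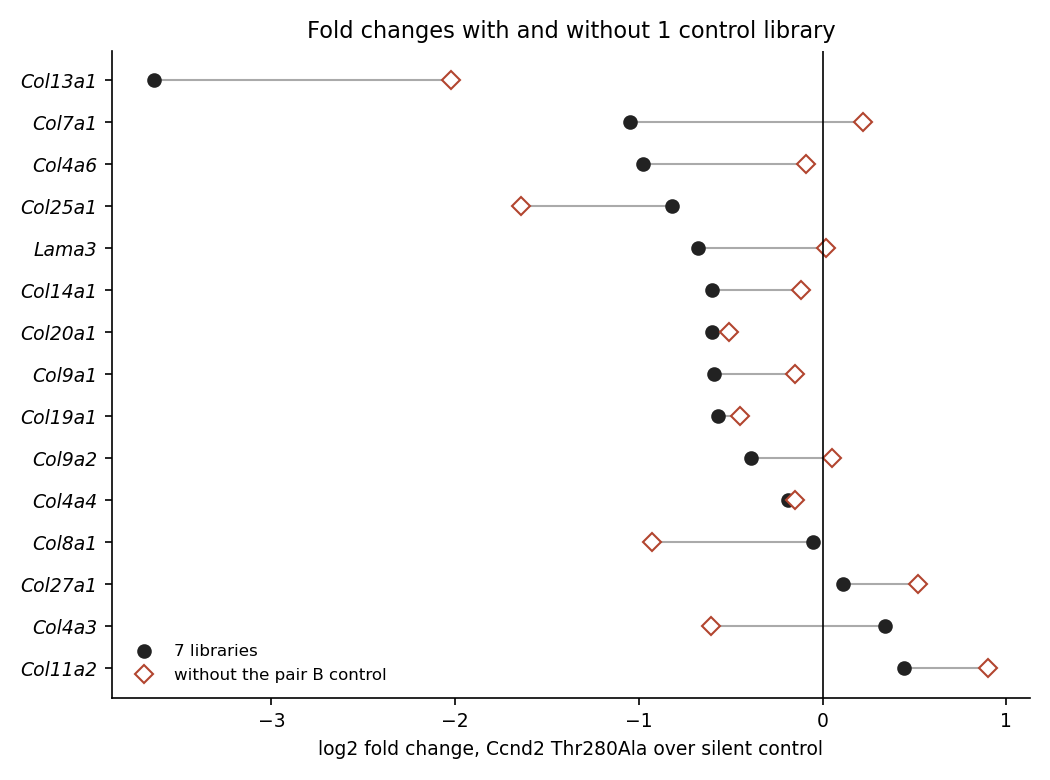
Log2 fold change, Ccnd2 Thr280Ala over silent control (horizontal axis), of 15 of the 16 members with recovered reads. Black points use all 7 libraries and open diamonds leave out the pair B silent control. Col13a1, Col7a1 and Col4a6 move to the right, towards or past 0. Col8a1 and Col25a1 move to the left, away from 0, and Col4a3 moves to the left past 0.

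Other genes of the matrix pathway had deposited medians between -0.33 and -0.01, against -0.55 over the 46 chains, a difference that was not tested, and 0 genes of the 5 lists were called, where 0.246% of all tested genes were. Of 12 genes listed as basement membrane partners, 11 lay below 0 with a median of -0.33. Among them the authors' deposited table held -0.43 (SE 0.21, adjusted p = 0.807) for the peroxidase gene Pxdn, which crosslinks type IV collagen. The 30 genes of collagen synthesis and crosslinking had a median of -0.11 with 22 below 0, and the prolyl hydroxylase gene P4ha2 had -1.01 (SE 0.49). P4ha2 had 26.1, 32.2 and 26.6 normalized counts in edited brains, against 33.8, 35.0, 49.5 and 130 in silent controls, again with the pair B control highest. The 8 enzymes that glycosylate the laminin receptor dystroglycan had a median of -0.01 with 4 below 0. The 15 receptor genes had a median of -0.15 with 11 below 0. Adgrg1 and Ddr1, receptors of type III and of several collagens, had deposited values of 0.30 (SE 0.10, adjusted p = 0.263) and 0.28 (SE 0.10, adjusted p = 0.335), above 0 where most chains lay below it. Adgrg6, a receptor of type IV collagen and laminin, had -1.38 (SE 0.66). The 9 turnover genes had a median of -0.12 with 8 below 0, among them the collagen-degrading Mmp2 and Ctsk with deposited values of -0.95 (SE 0.42) and -1.84 (SE 0.82). Ctsk had 5.06, 4.59 and 10.9 normalized counts in edited brains, against 4.33, 5.18, 14.6 and 250 in silent controls, and Adgrg6 had between 10.7 and 16.9 in edited brains, against 21.6, 11.7, 15.7 and 160 in silent controls. In both genes the pair B silent control was the high library. It was the highest of all 7 libraries in 11 of the 17 pathway and marker genes with recovered reads. In the rest of the 17 another library was highest, and the share over all genes was not measured.

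Markers of the cells that make collagen and laminin, and of other tissue near the cortex, are given beside these values. Values by library are given for Foxc2, Ptprc and Folr1 only. Of 13 markers of meninges and fibroblasts, 8 lay below 0 with a median of -0.80 and a range of -2.90 to 1.30, and 0 were called. Foxc2, a transcription factor gene of meningeal fibroblasts, had 0.843, 4.59 and 3.63 normalized counts in edited brains, against 1.73, 2.59, 7.87 and 296 in silent controls, with 93.2% of its reads in the pair B silent control. That is the library with 94.3% of the reads of Col13a1. All 8 endothelial markers lay below 0 with a median of -0.32, and the authors' deposited table held -0.44 (SE 0.16, adjusted p = 0.361) for Cldn5, a tight junction gene. The 8 pericyte markers had a median of -0.23 with 6 below 0. The 7 microglial markers had a median of -0.64, all below 0, and 5 of them passed an unadjusted p below 0.05, where 5.86% of all tested genes did. The smallest p of that list was that of the complement gene C1qb, with a deposited value of -0.81 (SE 0.27, adjusted p = 0.273). At the same unadjusted threshold 2 meningeal, 2 endothelial and 0 pericyte markers passed as lower, and 3 choroid plexus markers passed as higher. Ptprc, a gene of all leukocytes, had 21.1, 39.8 and 52.0 normalized counts in edited brains, against 37.2, 46.6, 58.5 and 150 in silent controls. The 5 choroid plexus markers had a median of 2.92, all above 0. One of them, Folr1, had 0.843, 6.13 and 361 normalized counts in edited brains, against 0.866, 0, 0 and 3.08 in silent controls, so that it was high in the pair B edited brain, as Col8a1 was. Markers of the cortex itself had small values, with a median of 0.16 for 8 radial glial genes and -0.04 for 6 neuronal genes, and neuronal Tubb3 had a mean of 59166 normalized counts. Of the radial glial genes 6 lay above 0, and 2 passed the unadjusted threshold as higher, where 2.2% of all tested genes did. Of the neuronal genes 0 passed it. The part of meningeal, vascular, microglial or choroid plexus tissue in the values of the collagens and laminins was not tested.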

How the data were processed

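RNA of 7 embryonic cortices was analysed from 1 table of the edited against silent control comparison. Per the submitters' processing notes, cutadapt, featureCounts, DESeq2 and the genome build mm10 were used, with no versions stated. Per the file headers, the authors' deposited table holds for each gene a mean normalized count (a signal over all libraries), a log2 fold change with its SE, a Wald statistic (a score), a p-value and a p-value adjusted over genes. Its name states that litter was a term. Calls use the deposited adjusted p below 0.05, and no model was refitted across genes. Benjamini-Hochberg adjustment of the deposited p-values gave the deposited adjusted values within 4e-05. Intervals are the deposited value ± 1.96 SE.

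Which sign of the deposited fold change means higher in edited brains is not stated. The 694 genes with a single read in all settle it: they share 7 pairs of fold change and SE, 3 positive and 4 negative, and the labels give 3 edited and 4 silent control brains. Fitting 1 read per library, with litter and treatment as terms of a negative binomial model, rebuilt every pair to within 2.1e-09 log2 units, and the best of the other assignments among 1260 missed by 0.042. These classes gave the size factors. Each estimated library total is the size factor times the summed mean normalized counts. For genes with a low mean, all whole reads per library that give the deposited mean were listed and fitted with the same model. For 16 of 16 members with a mean below 100 and 17 of 17 list genes below 60, exactly 1 set matched, with a residual of at most 4.8e-10 against 2.7e-08 for the next. Tested on simulated data of this comparison, 39 of 39 genes with a mean of 10 to 50 and 2 of 2 with a mean of 75 to 98 were recovered correctly. Reads were divided by the size factors, and no p-value was computed from them. The reads carry the authors' counting and are not tied to single samples beyond group and litter pattern.

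Members, classes, lists and markers were chosen with earlier results of these data known. Any member may be named, except 1 whose own values are not reported here and which stays in the counts and medians, and of each other list any called gene and up to 3 genes with the smallest p. Named outside this rule are Tubb3, as a check of the tissue, and Itga7, for its outlying library, and the order of members in the account by library was chosen after their values were seen. Exon lengths and coordinates come from GENCODE mouse M21 (GRCm38), and start windows from RefSeq. The brains are separate embryos by their labels, so the errors cover embryos around a fit with litter and treatment as terms. Python 3.11.15, numpy 2.4.6, pandas 2.3.3, scipy 1.17.1, numba 0.67.0 and matplotlib 3.10.9 were used.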

Additional observations from a re-analysis of the deposited data

Results flagged for a closer look

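In 4 of the 16 members with recovered reads, 1 of the 4 silent controls stood far above the other 3, with a gap to the next control beyond Dixon's critical value. This was the pair B silent control each time, with normalized counts of 203 for Col13a1, 422 for Col4a6, 154 for Col7a1 and 221 for Col9a2. The same library was flagged in 5 genes of the pathway and marker lists, with 160 for Adgrg6, 250 for Ctsk, 296 for Foxc2, 258 for Itga7 and 130 for P4ha2. Chance flags about 1 in 20 groups of normally distributed values, the rate for skewed low counts was not measured, and the flags share 1 library, so they are not independent of each other. For these genes the edited brains and the other 3 controls lay at 0 to 7.87 normalized counts for Col13a1 and Foxc2 and at 3.37 to 9.67 for Col7a1. What sets the library apart was not tested.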

How the results depend on the processing

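The count of members called was 0 in the deposited table, 0 with Benjamini-Hochberg adjustment over every gene with a p-value, 0 over rows with any mean above 0 and 0 at a mean of at least 100. It was 2 at an unadjusted p below 0.05. The class medians kept their sign with other limits on the mean, with centring on the median of all genes and with the multiplexins Col15a1 and Col18a1 moved to the other collagens. Weighting by inverse variance gave 0.02 for fibrillar collagens, against a median of -0.44, because Col2a1 has an SE of 0.16. It gave -0.28 for basement membrane collagens, -0.41 for other collagens and -0.25 for laminins.

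The deposited fit has litter as a block. Without the replicate block, fitted on the recovered reads of the 16 members at the same dispersion, 12 of 16 were below 0 with a median of -0.53. Col8a1 turned to 1.31, and Col4a6 and Col7a1 moved to -1.79 and -2.78. Leaving out each library, also at the same dispersion, was an alternative chosen after seeing the data. It gave 80 distinct fits, because leaving out either brain of a pair gives the same fit. In these, 11 values moved by 1 SE or more, 7 of them without pair B, and 12 had the other sign. They ranged from -4.26 to 1.11. For the 30 more abundant members no other fit was run, since their reads were not searched for, and the alternatives on counts of all genes were not run.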
